A study of Mus musculus with 8 samples.

Results

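The sodium-potassium pump and the cation-chloride cotransporters set the ion gradients that a neuron spends when it fires. The genes described here are 6 of 22180 named genes on the arrays: the pump's beta subunit genes Atp1b1, Atp1b2 and Atp1b3, and the cotransporter genes Slc12a2, Slc12a5 and Slc12a7. They were chosen by name, each from a probe set annotated to that symbol alone, and each had 1 such probe set. RNA came from hippocampal neurons of C57BL/6J mice, an inbred laboratory strain, dissected from E18.5 embryos and kept for 11 days in vitro in medium with AraC, which kills dividing cells. Of 8 Affymetrix arrays, 4 were from untreated cultures and 4 from cultures given 55 mM KCl for 4 h, which depolarises neurons. The labels number the arrays 1 to 4 in each group and give every array a different mouse number. They do not say whether a culture came from 1 embryo or from several.

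The pump moves sodium out of the cell and potassium in, at the cost of ATP. Its alpha subunit does the transport, and the beta subunit carries the enzyme to the membrane and tunes its affinity for potassium. Slc12a2 encodes NKCC1, which brings chloride into the cell with sodium and potassium, and Slc12a5 encodes KCC2, the neuronal cotransporter that lets chloride out with potassium. The balance of both sets whether GABA inhibits or excites a neuron, and it shifts towards KCC2 as hippocampal neurons mature. Slc12a7 encodes KCC4, a further potassium-chloride exporter that is known from epithelia.

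After 4 h of KCl, 0 of the 6 genes passed the limma test at an adjusted p under 0.05, against 2.36% of all 22180 genes (1.34% rose and 1.02% fell). With the replicate number as a block it was again 0 of 6, against 4.44% of all genes. Without adjustment, 1 of the 6 (Atp1b3) had a p under 0.05, against 13.0% of all genes. Atp1b3 and Slc12a2 had the largest differences, with KCl means 1.3-fold and 1.25-fold the untreated ones. In each of the 4 same-numbered pairs the KCl array was the higher one for both genes, as it was for 11.0% of all genes. Atp1b1, Atp1b2, Slc12a5 and Slc12a7 had KCl and untreated means that differed by at most 1.07-fold. None of the 6 had KCl arrays lying entirely above or below the untreated arrays, which was seen for 8.16% of all genes. The cultures had responded: Fos, an immediate-early transcription factor, stood at 5.57 to 6.90 in untreated and 10.30 to 10.56 in KCl arrays and rose 18.2-fold (adjusted p = 0.00054). The activity-dependent transcription factor Npas4 stood at 5.69 to 10.6 in untreated and 12.1 to 12.6 in KCl arrays, with an adjusted p of 0.0517, or 0.0324 under the block.

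**Figure D1:**
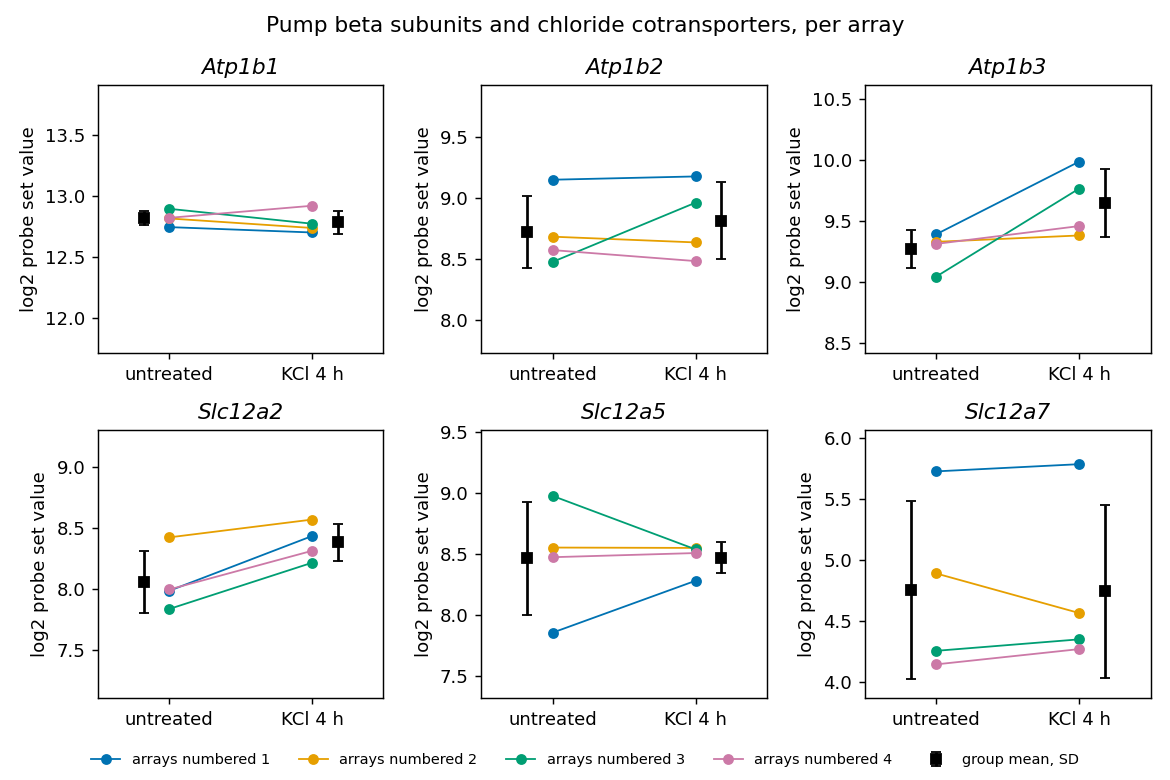
Log2 probe set values of the 6 genes in untreated and KCl arrays. Circles are single arrays, lines join arrays with the same number, and squares with bars are group means with SD (n = 4 each); every panel spans the same log2 range. The lines of Atp1b3 and Slc12a2 all go up, by 0.05 to 0.72 and by 0.15 to 0.45, while the 4 lines of Slc12a7 stay apart by number.

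Atp1b1 encodes beta-1, the beta subunit most used by neurons. Its log2 values were 12.75, 12.82, 12.90 and 12.82 in the untreated arrays numbered 1 to 4 and 12.70, 12.74, 12.77 and 12.92 in the KCl arrays. The groups overlapped, and the highest and lowest of the 8 values both belonged to KCl arrays. The mean was 12.82 ± 0.061 without and 12.78 ± 0.096 with KCl (SD, n = 4 each), a log2 difference of -0.04 with a 95% interval of -0.23 to 0.16 (limma adjusted p = 0.95). On the linear scale that interval runs from 0.852-fold to 1.12-fold, and it was the narrowest of the 6. With quantile normalization repeated the difference was 0.07, so the sign of this small difference is not fixed by the data.

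Atp1b2 encodes beta-2, an adhesion molecule of glia as well as a pump subunit, and is mainly a glial gene in brain. Its values were 9.15, 8.68, 8.47 and 8.57 in untreated and 9.17, 8.63, 8.96 and 8.48 in KCl arrays. Both arrays numbered 1 were the highest of their group, and the groups overlapped almost fully. The log2 difference was 0.09 with a 95% interval of -0.35 to 0.54, or -0.21 to 0.39 with the replicate number as a block (limma adjusted p = 0.941 and 0.812). Only the pair numbered 3 differed by more than 0.1, at 0.49, and without the KCl array numbered 1 the difference was -0.03.

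Atp1b3 encodes beta-3, a subunit found in many tissues. Untreated values were 9.39, 9.33, 9.04 and 9.31, and KCl values were 9.99, 9.38, 9.77 and 9.46. The lowest KCl array lay between the highest and the second highest untreated array, so the groups just met. The means were 9.27 ± 0.154 and 9.65 ± 0.28 (SD, n = 4 each), a log2 difference of 0.38. Its 95% interval was 0.03 to 0.72, and the limma adjusted p was 0.328 (0.0353 before adjustment). The interval is for a single gene and takes no account of the 22180 tests. By pair, the difference was 0.59, 0.05, 0.72 and 0.15. The pairs numbered 1 and 3 thus carried most of it, and with 1 array left out it ranged from 0.27 to 0.47.

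The beta-1 and beta-2 genes were also compared within each array, because a ratio within an array can show unequal change without setting the levels of different probe sets against each other. The change of Atp1b1 minus that of Atp1b2 was -0.13, from a difference of 4.1 ± 0.355 in untreated to 3.97 ± 0.391 in KCl arrays (SD, n = 4 each). An exact two-sided permutation test gave p = 0.629 (0.629 after adjustment over the 2 gene pairs compared, the smallest possible p being 0.0286). The sign turned, to 0.02, without the KCl array numbered 1, and to 0.03 with quantile normalization repeated.

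RefSeq windows of 250 bases before the transcription start (build GRCm38.p6) were read for 4 of the 6 genes. Atp1b2 had none in the set used. The search for member windows did not cover every chromosome, so a window of Slc12a2 may exist that was not read. Those of Atp1b1 and Atp1b3 are shown here as the beta subunits with the smallest and the largest difference. Each is written in the direction of the gene, and capitals mark matches to either GGGCGG, the GC box bound by Sp1, or TGACG, the core of the cAMP response element, on either strand.

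Atp1b1 (chr1:164458356-164458605, minus strand): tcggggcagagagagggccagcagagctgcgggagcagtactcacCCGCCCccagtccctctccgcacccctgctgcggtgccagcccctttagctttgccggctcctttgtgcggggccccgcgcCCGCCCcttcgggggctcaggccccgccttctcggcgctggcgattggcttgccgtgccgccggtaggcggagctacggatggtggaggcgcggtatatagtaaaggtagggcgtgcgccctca

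Atp1b3, first start (chr9:96364432-96364681, minus strand): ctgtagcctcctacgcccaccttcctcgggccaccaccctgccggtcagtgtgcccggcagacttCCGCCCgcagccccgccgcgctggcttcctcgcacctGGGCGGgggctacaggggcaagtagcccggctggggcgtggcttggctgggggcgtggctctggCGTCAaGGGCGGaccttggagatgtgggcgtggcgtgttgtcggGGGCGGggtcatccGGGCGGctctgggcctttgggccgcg

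The Atp1b3 window of the first start held 5 GC boxes and 1 TGACG core at -84 to -80 from the start, written here as its reverse complement CGTCA. The window of a second Atp1b3 start, 716 bases away and not shown, held neither motif and 1 E-box CACGTG. The Atp1b1 window held 2 GC boxes and no TGACG core. Among 32851 RefSeq windows of the same length, 32.7% held a GC box and 17.8% a TGACG core, and 1.55% held the full element TGACGTCA, which is in neither window. Both windows shown were richer in G and C than most, at 70.4% for Atp1b1 and 73.6% for Atp1b3 against a median of 52.4%. A match is a description of letters and was not tested for binding.

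Slc12a2, the gene of the chloride importer, had values of 7.98, 8.42, 7.83 and 7.99 in untreated and 8.43, 8.57, 8.21 and 8.31 in KCl arrays. Every KCl array lay above the untreated array of its number, by 0.45, 0.15, 0.38 and 0.32, but the untreated array numbered 2 lay above 2 of the KCl arrays. The log2 difference was 0.32 (SE 0.143, 95% interval -0.0032 to 0.65, limma adjusted p = 0.39). With the replicate number as a block the interval was 0.09 to 0.56, and the adjusted p was still 0.141. Leaving out single arrays gave differences of 0.25 to 0.44.

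Slc12a5, the gene of the chloride exporter, had nearly equal means in both groups. Its values were 7.86, 8.56, 8.98 and 8.48 in untreated and 8.28, 8.55, 8.54 and 8.51 in KCl arrays. The KCl arrays lay within the span of the untreated ones, and the array numbered 1 was the lowest in both groups. The means were 8.47 ± 0.462 and 8.47 ± 0.127 (SD, n = 4 each), and the log2 difference was 0.00 with a 95% interval of -0.48 to 0.49 (limma adjusted p = 0.999). That interval spans 0.717-fold to 1.4-fold, so a change of either size could not be told from none. The pairs went in different directions, with 0.42 for the arrays numbered 1 and -0.44 for those numbered 3. Without both arrays numbered 1 the difference was -0.14 (adjusted p = 0.832).

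The exporter and the importer were compared within each array in the same way. The change of Slc12a5 minus that of Slc12a2 was -0.32, from a difference of 0.41 ± 0.549 in untreated to 0.09 ± 0.213 in KCl arrays (SD, n = 4 each). By pair it was -0.02, -0.15, -0.82 and -0.28, lower after KCl in 4 of 4 pairs. The exact permutation test gave p = 0.371 (0.629 after adjustment over 2 gene pairs). Taken over the 4 pairs, an exact sign-flip test gave p = 0.125, the smallest that 4 pairs allow. With so few pairs that test could not reach 0.05 and settles nothing either way. Without the untreated array numbered 3 the value was -0.07.

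Egr4, an early growth response factor that is known to act on the Slc12a5 promoter, rose 4.85-fold, with untreated arrays at 5.14 to 5.93 and KCl arrays at 7.78 to 7.84 (adjusted p = 0.00046). RefSeq lists 2 starts for Slc12a5, 7142 bases apart on chromosome 2, and both windows are shown because the gene's known regulators were measured on the same arrays. Capitals mark the AP-1 site TGANTCA, the E-box CACGTG bound by USF factors and the GC box GGGCGG.

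Slc12a5, first start (chr2:164960596-164960845, plus strand): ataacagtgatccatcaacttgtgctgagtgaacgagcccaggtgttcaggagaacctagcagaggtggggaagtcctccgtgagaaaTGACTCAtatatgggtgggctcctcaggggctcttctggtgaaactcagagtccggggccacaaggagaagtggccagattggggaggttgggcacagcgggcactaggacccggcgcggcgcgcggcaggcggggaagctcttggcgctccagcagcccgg

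Slc12a5, second start (chr2:164967738-164967987, plus strand): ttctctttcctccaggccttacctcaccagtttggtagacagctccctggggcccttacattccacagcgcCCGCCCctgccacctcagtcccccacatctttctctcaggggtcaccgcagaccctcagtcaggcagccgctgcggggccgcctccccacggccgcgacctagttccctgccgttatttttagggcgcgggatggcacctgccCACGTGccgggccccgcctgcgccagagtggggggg

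The first window held 1 AP-1 site, at -162 to -156 from the start, a motif found in 6.75% of all windows. The second held 1 E-box, at -36 to -31, found in 6.02% of all windows, and 1 GC box. The EGR motif GCGNGGGCG, found in 4.7% of all windows, was in neither, which says only that these letters are not in these 250 bases. Whether the Slc12a5 probe set tells transcripts of the 2 starts apart was not tested.

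Slc12a7, the gene of KCC4, was set apart by replicate number and not by treatment. Its values were 5.73, 4.89, 4.26 and 4.15 in untreated and 5.79, 4.57, 4.35 and 4.27 in KCl arrays. Both arrays numbered 1 were the highest of their group and those numbered 3 and 4 the lowest. The lower quartile of all genes was 3.99 to 4.04 on the 8 arrays, so the gene stood near the dim end in the arrays numbered 3 and 4, where the values compress differences. The log2 difference was -0.01 with a 95% interval of -0.995 to 0.97, or -0.28 to 0.26 with the replicate number as a block (limma adjusted p = 0.998 and 0.982).

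The spread of each gene over the 8 arrays was divided into a share that goes with treatment, a share that goes with replicate number, and a remainder. Replicate number took 97.8% of the sum of squares of Slc12a7, 78.7% of that of Atp1b2 and 72.9% of that of Slc12a5. For all genes the median was 46.8%, with quartiles of 26.3% and 68.5%, so these 3 lay above the upper quartile. Treatment took 48.4% for Atp1b3 and 44.2% for Slc12a2, against a median of 10.7% and an upper quartile of 29.7%. It took 6.45% for Atp1b1, 3.05% for Atp1b2 and under 0.01% for Slc12a5 and Slc12a7. These shares are descriptions and carry no test.

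**Figure D2:**
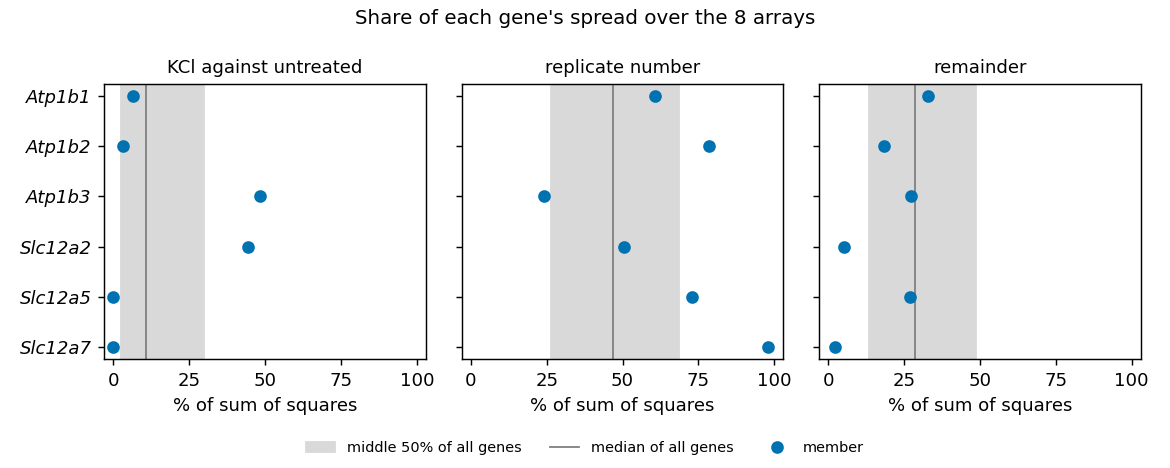
Share of each gene's sum of squares over the 8 arrays, in percent, that goes with treatment (left), with replicate number (middle) and with neither (right). Points are the 6 genes, the grey band spans the quartiles of all 22180 genes and the line is their median; Atp1b3 (48.4%) and Slc12a2 (44.2%) lie right of the band on the left, and Slc12a7 reaches 97.8% in the middle.

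The genes whose 8 values ran most like those of each member were found by Pearson correlation among 10518 genes brighter than the median gene, leaving out predicted names. For Slc12a7 these were Dnajb13 (r = 0.996) and Catip (r = 0.991), which are both known from cilia. Dnajb13 stood at 7.29, 5.93, 4.76 and 4.69 in untreated and 7.37, 5.49, 5.18 and 5.08 in KCl arrays, the same split by number as Slc12a7. For Atp1b2 they were Rnf122 (0.988) and Scara3 (0.971), and for Slc12a5 Rfxap (0.974) and Phactr3 (0.967). Prkca (0.955) and Pcdhb14 (0.946) were nearest to Atp1b1, Rbm24 (0.962) and Cfap20 (0.935) to Atp1b3, and Ppfibp1 (0.959) and Erdr1 (0.946) to Slc12a2. These are the highest of many correlations over 8 arrays, all from the same cultures and normalization, and are given as descriptions. Among the 6 genes themselves, Atp1b2 and Slc12a7 correlated at 0.85, and both ran against Slc12a5, at -0.75 each.

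**Figure D3:**
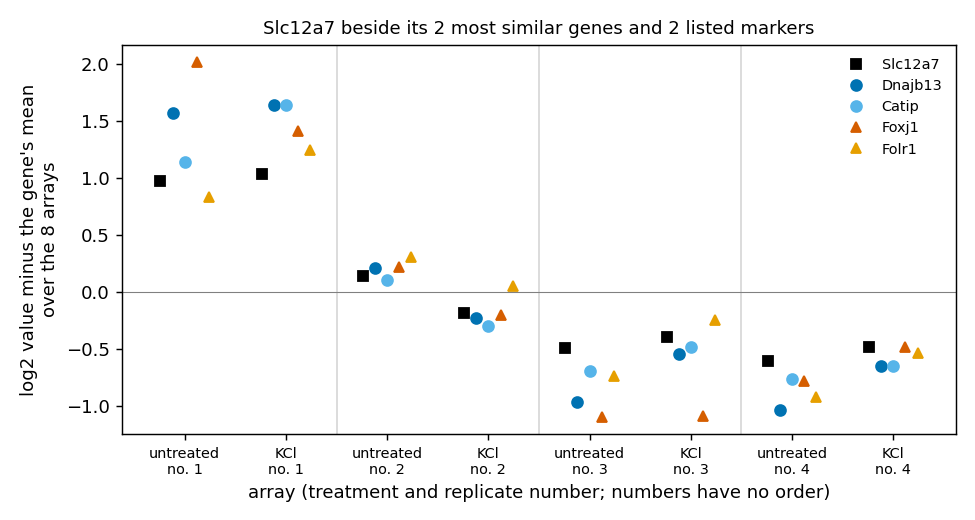
Log2 value minus the gene's mean over the 8 arrays, for Slc12a7 (squares), its most similar genes Dnajb13 and Catip (circles) and the listed markers Foxj1 and Folr1 (triangles), one column per array. For all 5 genes both arrays numbered 1 are the highest; Slc12a7 stands at 5.73 and 5.79 there and between 4.15 and 4.89 in the other arrays.

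Marker genes of other cell types moved with the replicate number too. Foxj1, the regulator of motile cilia in ependymal cells, stood at 8.07 and 7.46 in the arrays numbered 1 and at 4.96 to 6.27 in the other 6. The 4 choroid plexus and ependymal markers averaged 7.74 and 7.58 in the arrays numbered 1, 6.82 and 6.68 in those numbered 2, and 5.71 to 6.51 in the rest. Of these markers, Foxj1, Folr1 and Ttr were highest in the arrays numbered 1. Kl was not: it was dim, at 3.931 and 3.973 there, and highest in those numbered 4, at 4.407 and 4.335. The part of the 4 markers' cell types in the level of Slc12a7 was not tested. The 9 astrocyte markers averaged 9.77 and 9.42 in the arrays numbered 1 and 8.77 to 9.27 in the others, and the astrocyte filament gene Gfap was at 10.4 to 11.3 throughout, so the cultures labelled as neurons also held astrocyte RNA. In such mixed RNA, fewer cells of a type and less RNA per cell cannot be told apart. The 8 neuronal markers averaged 9.29 and 9.40 in the arrays numbered 1 and 9.74 to 10.1 in the others, and Slc12a5 was lowest in those same arrays numbered 1. Single markers did not all follow the average of their list. The neuronal marker Snap25 was highest of its group in both arrays numbered 1, at 12.469 and 12.355. Of the astrocyte markers, Aldh1l1 was lowest of the KCl arrays in that numbered 1, at 6.497, and Slc1a2 and Slc1a3 were not highest there.

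Between the groups, the list that differed most was that of the 5 progenitor and cycling markers, with a median log2 difference of 0.51. It averaged 6.76, 7.03, 6.35 and 6.02 in untreated and 7.01, 7.40, 7.32 and 6.44 in KCl arrays, the KCl array being the higher in each pair. The medians of the other 6 marker lists were between -0.10 and 0.08. The astrocyte list ranged from 8.77 to 9.77 in untreated and 8.80 to 9.42 in KCl arrays, and 1 of its 9 members passed: Slc1a2, the main glial glutamate transporter, fell to 0.583 of its untreated level (adjusted p = 0.0479, but 0.062 with the replicate block, and lost in the fits with 1 array left out other than that without untreated replicate 2). No member passed among 8 neuronal, 7 oligodendrocyte, 6 microglial, 8 vascular and meningeal, 4 choroid plexus and ependymal, and 5 progenitor markers. At an unadjusted p under 0.05 there was 1 neuronal marker, the GABA synthesis gene Gad1, and none in the other 5 lists. The KCl mean of Gad1 was 2.12-fold the untreated one (limma adjusted p = 0.353). With the replicate block, 1 neuronal marker, the GABA synthesis gene Gad2, and 1 progenitor marker, Pax6, passed (adjusted p = 0.0458 and 0.0461). Gad2 was lower after KCl, by a log2 difference of -0.49, and Pax6 higher, by 0.92. Microglial markers averaged 4.12 to 4.43, below the array medians of 4.69 to 4.82, and oligodendrocyte markers 4.76 to 5.14. The part of any of these cell types in the values of Atp1b2, Atp1b3, Slc12a2 and Slc12a5 was not tested.

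Around the 6 genes, 57 measured genes of the same systems were taken as 5 lists. Of these, 3 rose and none fell, where 1.34% of all genes rose and 1.02% fell: Clcn3, Clcn5 and Egr4. Of 14 other pump genes, which include the small FXYD modulators and the NKAIN pump partners, 0 passed in limma (1 at an unadjusted p under 0.05), with a median log2 difference of -0.02 against -0.01 for all genes. That 1 was Atp12a, with means of 3.95 in untreated and 4.27 in KCl arrays. Atp1a4, Atp1b4, Atp4a and Atp4b were as dim, with untreated means of 3.79 to 4.21, where changes are understated. These 5 genes are named after their values were seen. Fxyd1, phospholemman, which was picked after its values were seen, split by number like Slc12a7, at 7.89 and 8.08 in the arrays numbered 1 and 5.38 to 7.15 elsewhere. Of 5 other Slc12 genes 0 passed (1 at an unadjusted p under 0.05). That 1 was Slc12a3, with means of 3.88 in untreated and 4.12 in KCl arrays. Slc12a1 was as dim, at 3.93 and 3.98, and changes of both are understated. Both are named after their values were seen. The nearest paralog, Slc12a4, which encodes the widely expressed KCC1, stood at 6.79, 6.83, 6.17 and 5.45 in untreated and 6.93, 7.05, 6.56 and 5.49 in KCl arrays (log2 difference 0.20, limma adjusted p = 0.938). A second probe set of Slc12a4 differed by -0.14.

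The cotransporters are switched by phosphorylation: WNK kinases act through the kinases SPAK (Stk39) and OSR1 (Oxsr1), which activate NKCC1 and restrain the KCCs. Of 13 measured kinases and partners, 0 passed (5 at an unadjusted p under 0.05, against 13.0% of all genes), and the median log2 difference was 0.20 against -0.01 for all genes. Wnk3, picked after its values were seen because it passed with the replicate number as a block, stood at 7.92, 8.66, 8.78 and 8.79 in untreated and 8.48, 9.05, 9.29 and 9.15 in KCl arrays. It was higher in 4 of 4 pairs, with a log2 difference of 0.46 (limma adjusted p = 0.514, and 0.0494 with the block). Without untreated replicate 1, its lowest array, the difference was 0.25 (adjusted p = 0.683). Of the other WNK genes, also picked after their values were seen, Wnk2 went the other way. Its log2 difference was -0.49 (95% interval -0.94 to -0.04, limma adjusted p = 0.329). Wnk1 and Wnk4 had differences of 0.29 and 0.20 (adjusted p = 0.518 and 0.687). Klhl3 and Sgk1 were picked in the same way, as the smallest p of the list. Klhl3, the adaptor that sends WNK kinases for degradation, had a log2 difference of -0.50 (95% interval -0.80 to -0.20, adjusted p = 0.111), and its KCl arrays all lay below the untreated ones. Sgk1, a kinase that regulates ion transport, had a difference of 0.77 (95% interval 0.30 to 1.25, adjusted p = 0.117), and its KCl arrays all lay above. Of the pair of kinases below the WNKs, also picked after their values were seen, Oxsr1 had a difference of 0.55 (95% interval 0.06 to 1.05, adjusted p = 0.315) and Stk39 one of 0.02 (-0.26 to 0.29, adjusted p = 0.988).

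**Figure D4:**
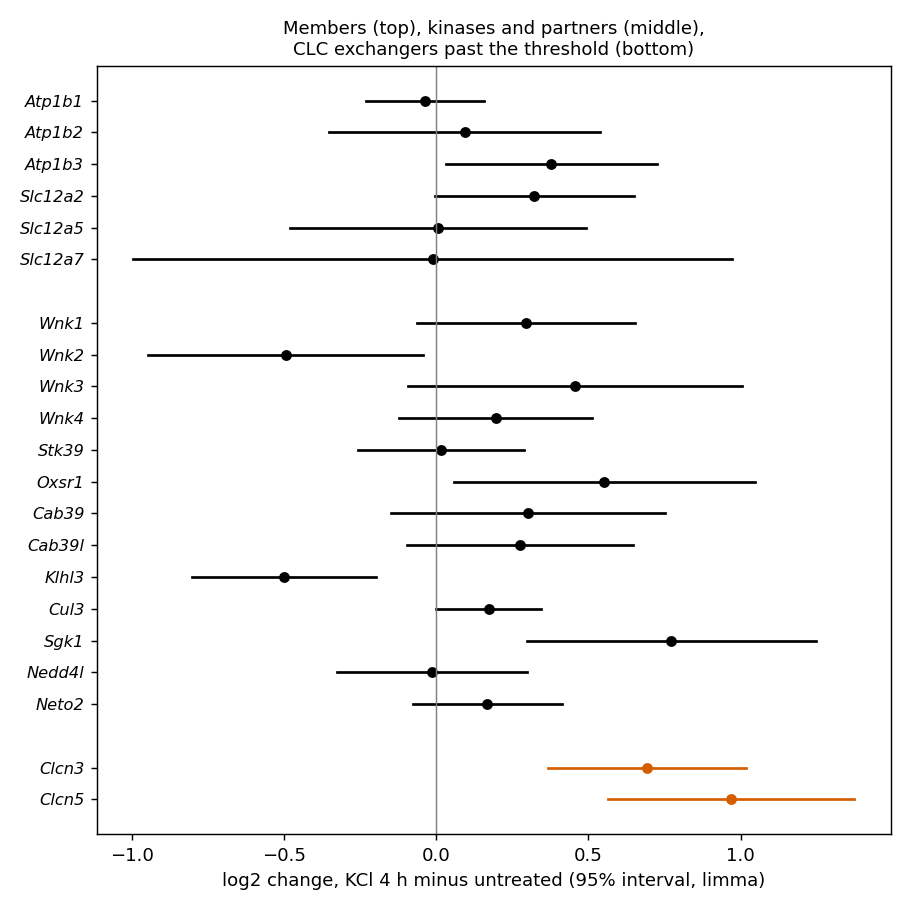
Log2 change after KCl (points) with the 95% interval of the limma fit (lines) for the 6 genes (top), the 13 kinases and partners (middle) and the 2 CLC genes past the threshold (bottom, orange). The interval is narrowest for Atp1b1 (-0.23 to 0.16) and widest for Slc12a7 (-0.995 to 0.97) among the 6 genes, and only Clcn3 and Clcn5 passed over all genes.

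Other chloride and bicarbonate carriers held the remaining rises. Of 18 measured, 2 rose, 0 fell and 16 did not pass, with a median log2 difference of -0.05. Clcn5, a chloride-proton exchanger of endosomes, stood at 7.36, 8.0, 7.89 and 7.58 in untreated and 8.34, 8.64, 8.95 and 8.78 in KCl arrays. It rose 1.96-fold (log2 change 0.97, SE 0.177, limma adjusted p = 0.0295), with no overlap of the groups. Clcn3, a related exchanger of endosomes and synaptic vesicles, stood at 8.74, 8.37, 8.81 and 8.96 in untreated and 9.31, 9.26, 9.59 and 9.48 in KCl arrays. It rose 1.62-fold (log2 change 0.69, SE 0.142, adjusted p = 0.0466). With single arrays left out the log2 changes were 0.85 to 1.08 for Clcn5 and 0.58 to 0.77 for Clcn3, but not all calls held. Leaving out any of the KCl arrays numbered 2, 3 and 4 or the untreated arrays numbered 3 and 4 ended that of Clcn5 (adjusted p = 0.0638 to 0.092), and leaving out any one of the 8 ended that of Clcn3 (0.0521 to 0.135). The call of Clcn3 was also lost with repeated quantile normalization (0.0561), median centring (0.0508), trended and robust eBayes (0.0519), no moderation (0.134) and without both arrays numbered 1 (0.101), and that of Clcn5 with no moderation (0.116). With the replicate block both passed (adjusted p = 0.0117 and 0.0222). Of 7 known regulators of Slc12a5, Egr4 rose and 6 did not pass (3 of the 7 at an unadjusted p under 0.05).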

How the data were processed

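The authors deposited 1 log2 value per probe set and array, made with RMA and Partek, per the submitters' processing notes, with order, settings and any batch adjustment not given in the sources used here. The method compresses differences near background, so changes of dim genes are understated. Per the labels' protocols, RNA was labelled with the WT Plus kit. Probe sets were named from GEO's platform annotation: of 34472, 23521 had 1 symbol, 1814 several and 9137 none. Per gene the probe set of highest mean over the 8 arrays was kept (22180 genes). The 6 members each had 1, and all 6 symbols matched RefSeq. No array was a copy of another, and 0 columns belonged to other samples. The labels do not call the cultures independent, so p-values measure the spread between these arrays, and their number limits precision.

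Groups came from the titles. In R 4.3.3, limma 3.58.1 (eBayes after lmFit, group as the only term, two-sided) was fitted to all genes with Benjamini-Hochberg adjustment at 0.05, and was tested on simulated data. The simulated arrays varied independently, without deviations shared by replicate number, so the simulation did not check the fit where arrays share them. Pairs of members were compared with exact permutation tests. Same-numbered arrays deviated together (correlations across genes of 0.64, 0.23, 0.41 and 0.37, and all 8 arrays matched best with their own number), so the numbers were taken as pairs, although no label gives a litter, batch or day. The members and the lists were chosen with earlier results of these data known. The text names the 6 members, the list genes past the threshold, Slc12a4, Fos, Npas4 and, per member, the 2 most correlated genes; others are said to be picked after their values were seen, and markers are named as examples of their lists. Alternatives were the replicate block, fits without both arrays numbered 1 or without each array, repeated quantile normalization, median centring, brighter genes, the mean of probe sets, all probe sets, and trended, robust or no moderation. Sequences are RefSeq's, build GRCm38.p6. Matplotlib 3.10.9 in Python 3.11.15 drew the figures.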

Additional observations from a re-analysis of the deposited data

Results flagged for a closer look

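Among 16 genes named above with both groups of 4 arrays, 32 groups were checked for a single array far from the others (chance gives about 1 in 20), and 2 were found. Slc12a5 in the KCl array numbered 1 stood at 8.284, below the other KCl arrays, of which the nearest was 8.51. Wnk3 in the untreated array numbered 1 stood at 7.918, below the other untreated arrays, of which the nearest was 8.66. Both belong to the arrays numbered 1, in which the averages of the astrocyte and of the choroid plexus and ependymal markers were highest. Without the untreated array numbered 1 the log2 difference of Wnk3 was 0.25, against 0.46 with all arrays. Without both arrays numbered 1 the log2 difference of Slc12a5 was -0.14, and none of the 6 genes passed.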

How the results depend on the processing

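None of the 6 genes passed in any of the 17 alternatives, with adjusted p of 0.141 to 0.999 over 101 values. Atp1b3 (0.27 to 0.47) and Slc12a2 (0.25 to 0.44) kept their sign throughout, and the other 4 changed sign in at least 1. With quantile normalization repeated, Atp1b1 was 0.070, Slc12a5 -0.039 and the change of Atp1b1 minus Atp1b2 0.031. With arrays centred on medians Slc12a7 was 0.022, and without both arrays numbered 1 Slc12a5 was -0.14. The cause was not tested. With single arrays left out the ranges were -0.027 to 0.24 for Atp1b2, -0.20 to 0.18 for Slc12a5, -0.36 to 0.31 for Slc12a7, -0.084 to 0.54 for Slc12a4, -0.30 to 0.018 for Atp1b1 minus Atp1b2 and -0.50 to -0.07 for Slc12a5 minus Slc12a2. The dimmer probe set of Slc12a4 was at -0.14. The count of all genes past the threshold, 524, was 985 with the replicate block, 129 without moderation and 186 to 501 with single arrays left out, and that of the related lists, 3, was 1 to 2 with single arrays left out and 4 with the block, which added Wnk3. The block changed no other call of a gene named here except those of Slc1a2, Npas4, Gad2 and Pax6. Slc12a7 is dimmer than the median gene and was not in the fit of brighter genes. Signal over background was not analysed here.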
